A study of Mus musculus with 4 samples.

Results

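The 10 genes Cldn5, Cldn11, Cdh5, Cdh11, Cdh13, Pecam1, Esam, Tjp1, Jam2 and Emcn were followed through 4 single-cell RNA libraries of the mouse heart. They encode proteins of endothelial cell contacts and of the endothelial surface, and all 10 were found among the 27998 genes of the files. Hearts came from C57Bl6J mice of 4 stages, embryonic days 12 (E12, 37 animals pooled) and 15 (E15, 48 animals), postnatal day 2 (P2, 21 animals) and 8 weeks (adult, 6 animals). CD31+/CD45- cells were sorted from each pool and made into 1 library of 10x Genomics 3' reads. No animal carried a transgene or treatment that the labels name. CD31 is the protein of Pecam1, so the sort itself selected on 1 of the 10 genes.

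Values are unique molecular identifiers (UMIs), which count captured transcripts. UMIs were summed over the cells of a class and given as CPM (counts-per-million), the part of a gene in all UMIs of that class. Wherever 4 values stand in a row, they follow the stages from E12 over E15 and P2 to the adult. A 3' library gives about 1 UMI per captured transcript whatever its length, so levels of different genes are set side by side on this scale without a length correction. The libraries held 5732 (E12), 6062 (E15), 5884 (P2) and 4242 (adult) cells, with a median of 1241, 1013, 4531.5 and 1510 UMIs each. As each stage is 1 library, no test between stages or classes was made. Ranges in parentheses are exact 95% intervals for counting error only, and they hold nothing of the variation between animals. Those of levels and ratios take each UMI as independent, so they also leave out the spread between cells. A gene was counted as higher or lower at a ratio of at least 2 or at most 0.5, given 20 or more UMIs over both groups and 20 or more cells in each. In small classes counting noise alone can carry a ratio past 2-fold, so the interval is given with it. The embryonic hearts were digested with Collagenase/Dispase and the P2 and adult hearts with Collagenase II before it. Red blood cells were lysed in adult samples. After thawing, dead cells were removed from E12 and E15 with a kit, while P2 and adult cells were sorted again for live ones. Stage and preparation thus cannot be told apart.

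Cells were split by UMI sums that hold none of the 10 genes. Endocardial cells line the heart chambers, and here had more UMIs of Npr3 and Tmem108 than of Fabp4 and Aplnr. Coronary cells form the vessels of the heart muscle, and had at least 2 UMIs of Fabp4 and Aplnr and more than of Npr3 and Tmem108. Artery cells had at least 3 UMIs of Cxcl12, Glul, Alpl and Nebl. Valve cells had at least 2 UMIs of Enpp2, Aqp8 and Lsamp. These rules gave 1739, 2143, 1133 and 77 endocardial cells. The coronary class had 62, 1149, 4470 and 4050 cells, the artery class 332, 69, 711 and 1875, and the valve class 2, 38, 272 and 27. A cell can meet more than 1 rule, which 59, 36, 896 and 1878 cells did. Of the valve cells at E15, P2 and in the adult, only 4, 90 and 4 were also endocardial. Valve cells below means cells of this rule, whichever other rules they meet. Other endocardial cells are endocardial cells that do not meet the valve rule. The smallest class, the 2 valve cells at E12, was given no ratio.

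Endothelial cells are held together by 2 kinds of contact that lie close to each other along the cell border. In tight junctions, claudins and the immunoglobulin-type junctional adhesion molecules seal the space between cells and are tied to the cytoskeleton by scaffold proteins such as ZO-1. In adherens junctions, cadherins bind their like on the neighbouring cell and link to catenins inside it, and VE-cadherin is the one that defines endothelium. The sialomucin endomucin is no junction protein but covers the endothelial surface, where it is known to hinder the adhesion of blood cells.

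RefSeq promoter sequences of GRCm38.p6 were matched by symbol to 4 of the 10 genes, Cldn5, Cldn11, Tjp1 and Emcn. Of these, 3 are shown because their transcripts were highest in different classes, Cldn5 in coronary, Cldn11 in valve and Emcn in endocardial cells, and the 250 bases before the start were used. Capitals mark AGGAAG, a sequence that holds the shorter core GGAA that ETS factors are known to bind, or GGGCGG, a GC box. Each was searched on both strands.
Cldn5, chr16:18776597-18776846, + strand: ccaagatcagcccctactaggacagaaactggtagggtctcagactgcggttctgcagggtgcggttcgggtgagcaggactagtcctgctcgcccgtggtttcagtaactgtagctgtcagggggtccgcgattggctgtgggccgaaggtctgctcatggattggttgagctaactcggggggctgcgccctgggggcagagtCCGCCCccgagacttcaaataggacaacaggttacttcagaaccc
Cldn11, chr3:31149670-31149919, + strand: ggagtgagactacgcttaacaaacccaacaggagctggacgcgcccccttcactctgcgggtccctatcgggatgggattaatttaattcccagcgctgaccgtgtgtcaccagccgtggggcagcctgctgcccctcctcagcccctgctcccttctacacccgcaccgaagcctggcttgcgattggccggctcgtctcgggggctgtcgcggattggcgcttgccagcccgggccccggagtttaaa
Emcn, chr3:137340828-137341077, + strand: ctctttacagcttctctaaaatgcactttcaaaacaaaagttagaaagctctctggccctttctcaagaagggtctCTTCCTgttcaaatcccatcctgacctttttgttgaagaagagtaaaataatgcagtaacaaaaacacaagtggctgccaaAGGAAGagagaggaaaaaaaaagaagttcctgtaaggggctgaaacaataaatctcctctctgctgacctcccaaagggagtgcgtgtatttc
The Emcn sequence held AGGAAG 2 times and those of Cldn5, Cldn11 and Tjp1 held it 0 times, where 29.5% of 32851 promoters of this length hold it. GGGCGG occurred 1 time for Cldn5, 2 times for Tjp1 and 0 times for Cldn11 and Emcn, against 32.7% of promoters. The Tjp1 window (chr7:65371245-65371494, - strand) lies inside the gene span (chr7:65296165-65527781), so it stands before an internal start. The GC content was 59.6% for Cldn5, 63.6% for Cldn11, 63.2% for Tjp1 and 40.8% for Emcn. TATAAA was in none of the 4 and in 12.4% of promoters. A match is a run of letters in this window and shows no binding. GGAA within other letters was not counted, so 0 matches of AGGAAG do not mean that the core is absent.

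The classes were checked against marker lists that hold none of the class genes. Summed endocardial markers (Nfatc1, Gata4, Hand2 and 5 others) had 1586 to 2873 CPM in endocardial cells and 175 to 594 CPM in coronary cells over the 4 stages. Cells picked by collagen UMIs, as named below, had 719, 755, 1513 and 757 CPM of these markers. Cells meeting none of the 4 rules had 893, 1411, 1499 and 2069 CPM. At P2, where endocardial cells had 1737 CPM, the list thus set them little apart from such cells. Summed coronary markers (Cd36, Car4, Rgcc and 6 others) had 579 to 8705 CPM in coronary and 31.5 to 362 CPM in endocardial cells. The sum of 8 endothelial markers rose within both classes. It was 2568, 4156, 5849 and 6444 CPM in endocardial and 2551, 3121, 4337 and 5902 CPM in coronary cells. Of the endocardial cells, 1174 of 1739 at E12 and 77 of 77 in the adult had at least 2 UMIs of Egfl7, Ramp2, Tie1, Eng and Kdr, at unlike depths. At P2 the artery label held, with 1813 CPM of 10 artery markers against 439 CPM in other coronary and 435 CPM in endocardial cells. Coronary markers of the class, at 4274 CPM, were near those of other coronary cells (4534 CPM). In the adult the artery label held only in part. The class took 44.2% of that library and had 1272 CPM of the artery markers against 600 CPM in other coronary cells, but endocardial cells had 1031 CPM, and its coronary markers, at 8737 CPM, were as high as in other coronary cells (8481 CPM). It did not hold in the embryo. At E12 and E15 the cells meeting the artery rule had 3273 and 6784 CPM of 7 mesenchyme markers such as Col1a1, but only 484 and 1505 CPM of 8 endothelial markers. Of these cells 0 and 15 were coronary by the rule, so they are called cells of the artery rule below. Valve markers summed to 1330, 2035 and 1193 CPM in the valve class at E15, P2 and in the adult, against 667, 1183 and 726 CPM in other endocardial cells. Cells picked by Col1a1, Col1a2 and Col3a1 UMIs had 1918, 2095 and 1342 CPM of the same markers. Cells of the artery rule had 1248 CPM at E15, and lymphatic cells, defined below, 1313 CPM at P2. The valve list holds Prox1, a gene of the lymphatic rule, so the lymphatic value is raised by how those cells were picked. The markers thus did not set the valve class apart from the cells picked by collagen UMIs, and at E15 little from cells of the artery rule. Mesenchyme markers summed to 1727, 2581 and 10180 CPM in the valve class, against 1050, 1172 and 3049 CPM in other endocardial cells. Adult endocardial cells as a whole had 3379 CPM. Cells meeting none of the 4 rules made up 63.8%, 44.5%, 3.6% and 2.24% of the libraries.

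Barcodes were shared between pairs of libraries by 25 to 60 cells, at most 1.02% of the smaller library. Barcodes drawn at random would give 32.98 to 48.38 shared ones per pair. The E12 file also held barcodes too shallow to be cells, and 98.9% of the barcodes called at E15 occurred there with 1 to 100 UMIs, against 21.4% of those called at P2 and 21.2% of those called in the adult. What this sharing does to the E12 cells was not tested, and these barcodes were left out wherever free RNA is estimated.

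In whole libraries, 7 of the 10 genes rose at least 2-fold from E12 to E15 and 7 from E15 to P2. Over all genes 4.99% and 13.2% rose that much. From E12 to E15 none of the 10 fell (5.93% of all genes did), from E15 to P2 none fell (10.2%), and from P2 to the adult 1 rose (11.5%) and 2 fell (13.7%). The median log2 ratio of the 10 genes was 1.07, 1.30 and 0.37 over the 3 steps, and that of all genes tested -0.04, 0.17 and -0.02. Summed over the 10, the level was 859 (839 to 879), 1699 (1669 to 1729), 4425 (4401 to 4449) and 5451 (5399 to 5504) CPM. These levels mix 2 quantities, the level within a cell and the makeup of the library, in which coronary cells went from 1.08% to 95.5% and endocardial cells from 30.3% to 1.82%. The classes are therefore given one by one below.

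**Figure D1:**
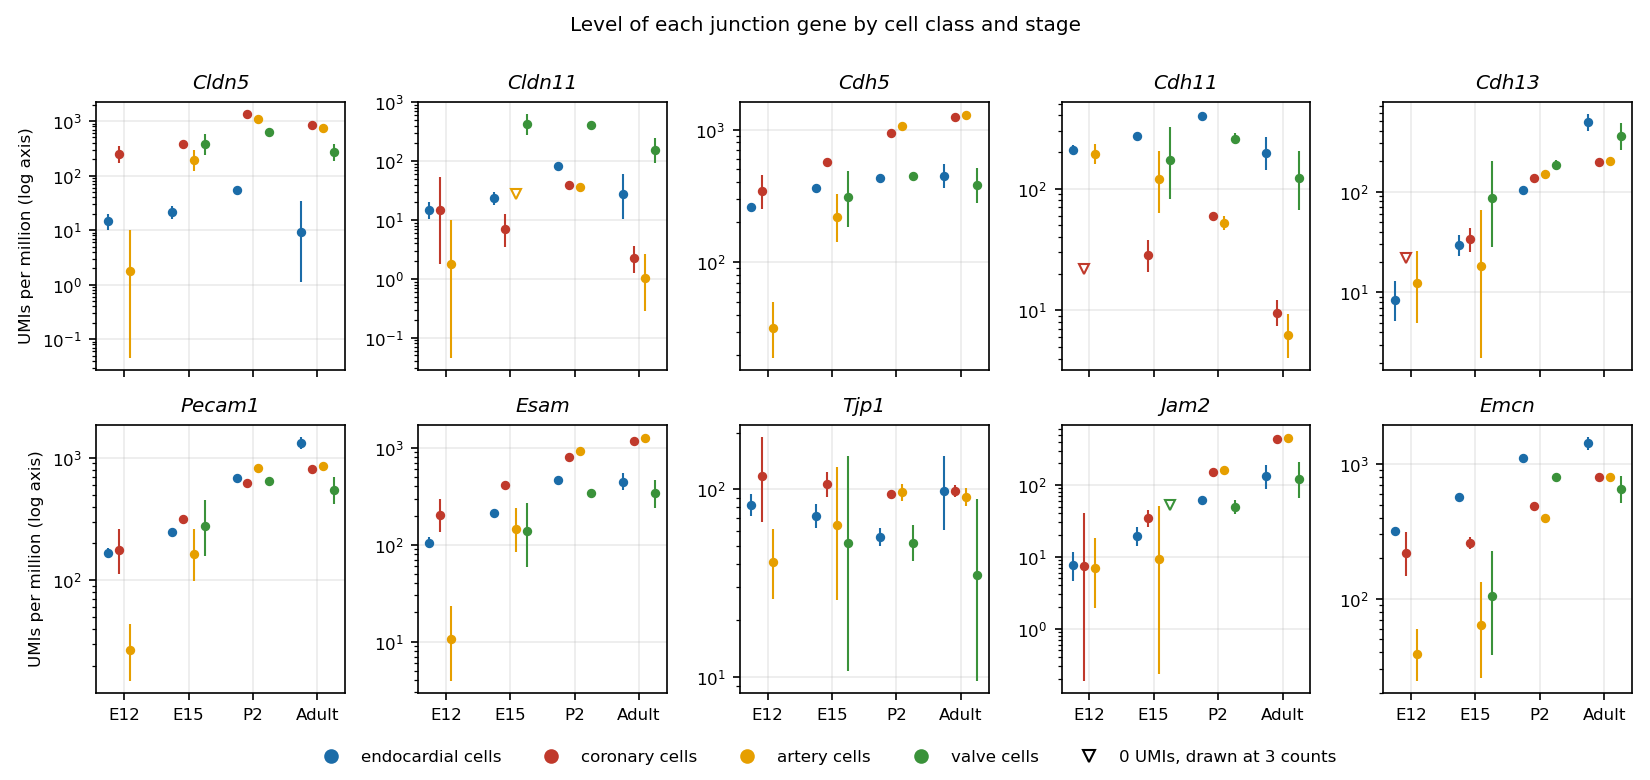
Level of each of the 10 genes, in CPM on a log axis, by stage and cell class. Points are sums over the cells of a class, bars are exact 95% intervals of the count, open triangles mark classes with 0 UMIs at the level of 3 counts, and the 2 valve cells at E12 are left out. Among the classes drawn, Cldn5 is highest in coronary cells, with an overlapping valve interval at E15. Cldn11 is highest in valve cells from E15 on, while Tjp1 stays within a narrow range.

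Cldn5 (ENSMUSG00000041378, chr16:18776847-18778262, + strand), the main claudin of endothelial tight junctions, was higher in coronary than in endocardial cells at every stage. The valve class came near the coronary level at E15, and lymphatic cells passed it at P2, as given below. Coronary cells had 249 (173 to 348), 387 (356 to 419), 1344 (1329 to 1359) and 831 (810 to 852) CPM. Endocardial cells had 14.4 (10.1 to 19.9), 21.3 (16 to 27.9), 53.6 (47.7 to 60.2) and 9.37 (1.14 to 33.9) CPM. No endocardial interval overlapped a coronary one. The endocardial level was 0.0576 (0.0351 to 0.0949), 0.0552 (0.0408 to 0.0731), 0.0399 (0.0354 to 0.0448) and 0.0113 (0.00137 to 0.0408) of the coronary level, and the adult value rests on 2 endocardial UMIs. With endocardial and coronary cells set by wider marker sums, an alternative chosen after seeing the data, the ratio was 0.136 (0.0866 to 0.22), 0.107 (0.0876 to 0.131), 0.117 (0.111 to 0.123) and 0.311 (0.261 to 0.369), which is again below 1 at every stage, though by less. Free RNA is another limit on the low endocardial values: E12 barcodes with 1 to 100 UMIs, too shallow to be cells, had 197 (164 to 235) CPM of Cldn5.

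The rise of Cldn5 in whole libraries was steeper than within coronary cells. Whole libraries went from 32.5 to 788 CPM, a ratio of 24.2 (21.4 to 27.5). Within coronary cells the ratio of adult over E12 was 3.33 (2.38 to 4.82), and within endocardial cells it was 0.653 (0.0761 to 2.53). The 3 successive steps within coronary cells were 1.55 (1.1 to 2.26), 3.48 (3.21 to 3.77) and 0.618 (0.601 to 0.635). The stage with the highest level was thus P2 in coronary cells. Among endocardial cells the highest value was also at P2. However, their shares of cells at E12, E15 and in the adult cannot be told from background, as given below, so no peak stage is set. With the wider marker sums the endocardial step from P2 to the adult was 1.51 (1.26 to 1.81) in place of 0.175 (0.0211 to 0.637).

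Cells differ in depth, so shares of cells with a Cldn5 UMI were also taken after each cell was thinned to 500 UMIs. They were 11.3% (4.66 to 21.9), 17.9% (15.7 to 20.4), 41.6% (40.2 to 43.1) and 27.2% (25.8 to 28.6) of coronary cells. Endocardial cells gave 0.929% (0.532 to 1.5), 0.979% (0.599 to 1.51), 2.82% (1.94 to 3.96) and 0% (0 to 4.68). Before thinning, the coronary shares were 29%, 36%, 80.2% and 49% and the endocardial ones 1.96%, 2.05%, 17% and 2.6%. The order of the stages within coronary cells was the same at both depths. Blood cells and macrophages, which should lack the gene, had it in 0 of 40 and 0 of 31 cells at E12 (upper limits of 8.81% and 11.2%) and in 0 of 7 and 0 of 38 at E15 (41% and 9.25%). In the adult 1 of 3 blood cells and 2 of 16 macrophages had it, the latter 12.5% (1.55 to 38.3) at a median of 4601 UMIs, where endocardial cells had a median of 2609 UMIs. The endocardial shares at E12, E15 and in the adult are at or below these limits and cannot be told from background. At P2 no blood cell or macrophage was found.

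**Figure D2:**
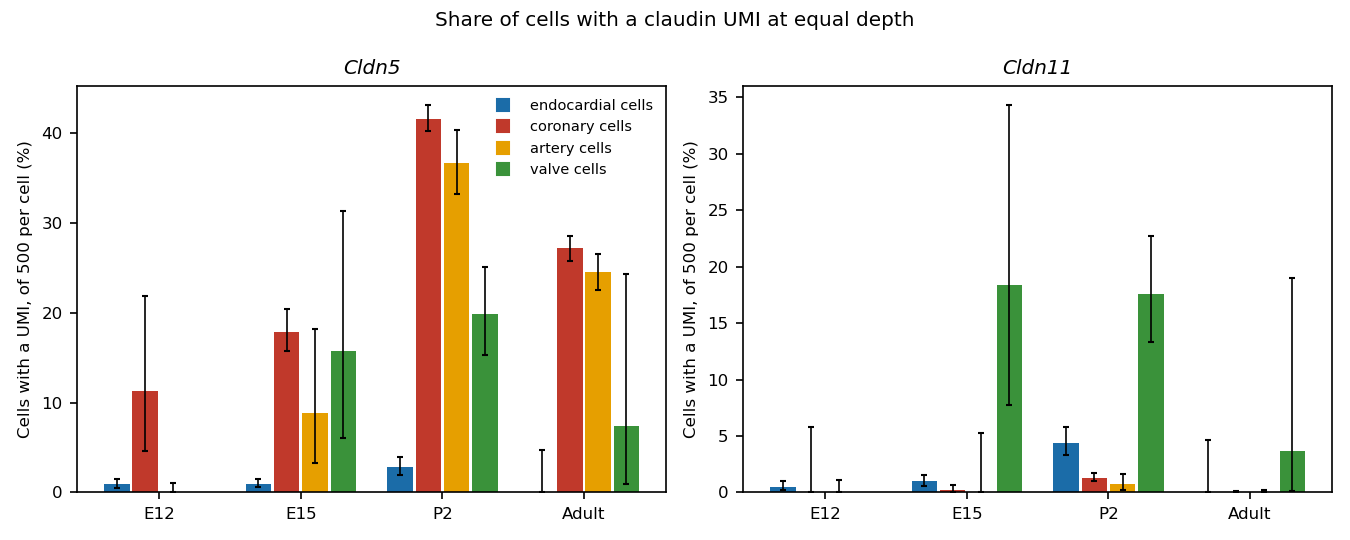
Percentage of cells with at least 1 UMI of Cldn5 or Cldn11 after each cell was thinned to 500 UMIs, by stage and class. Bars are shares with exact 95% binomial intervals, and classes under 20 cells are left out. Coronary cells reach 41.6% for Cldn5 at P2, and valve cells 18.4% for Cldn11 at E15.

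Cldn11 (ENSMUSG00000037625, chr3:31149920-31164324, + strand), best known from the myelin of oligodendrocytes and from Sertoli cells, was highest in valve cells among the 4 classes from E15 on. Lymphatic cells at P2, described below, had a like level of 397 CPM. Valve cells of E15, P2 and adult hearts had 432 (279 to 637), 404 (374 to 436) and 157 (92.9 to 248) CPM. Other endocardial cells had 21.4 (16 to 28), 75.9 (68.4 to 84.1) and 30.4 (11.2 to 66.3) CPM. The ratio of valve over other endocardial cells was 20.2 (12 to 33.1), 5.32 (4.68 to 6.06) and 5.15 (1.96 to 15.8), with no overlap of the intervals of the levels at any of the 3 stages. At E15 only 4 of the 38 valve cells were endocardial by the rule, so most of the cells on the valve side were not endocardial. The adult value rests on few cells: 18 UMIs in 3 of 27 valve cells, 11.1% (2.35 to 29.2), against 3 of 77 endocardial cells, 3.9% (0.811 to 11), so the shares of cells overlapped. Both valve cells at E12 had a Cldn11 UMI. Coronary cells had 14.7, 7.08, 39.6 and 2.24 CPM, so the adult coronary level was the lowest. The P2 coronary class included 119 cells that also met the valve rule. The endocardial level over the coronary one was 1.01 (0.26 to 8.62) at E12, from 2 coronary UMIs, then 3.3 (1.71 to 6.97), 2.13 (1.9 to 2.38) and 12.6 (4.03 to 33.8). From P2 to the adult Cldn11 fell in all 4 classes, with ratios of 0.334 (0.122 to 0.732), 0.0565 (0.0321 to 0.0922), 0.0294 (0.0079 to 0.0769) and 0.388 (0.229 to 0.618) for endocardial, coronary, artery and valve cells. In the adult library 28 UMIs of Cldn11 were counted in all.

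Both claudins met in valve cells. Cldn5 had 380 (238 to 575), 638 (600 to 677) and 270 (183 to 383) CPM in the valve class at E15, P2 and in the adult. That was 18.8 (10.9 to 31.7), 12.7 (11.1 to 14.7) and 26.6 (6.77 to 229) times the level of other endocardial cells. Of the 27 adult valve cells, however, 18 met the coronary rule and 4 the endocardial one, and the 9 that were neither coronary nor lymphatic had 27.7 CPM of Cldn5, with UMIs in 1 cell. At P2, 27.2% of the 272 valve cells had UMIs of both claudins, against 2.47% of endocardial and 3.56% of coronary cells at medians of 5334, 4534 and 4564 UMIs. Of the 272, 119 also met the coronary rule and 27 a lymphatic rule (3 or more UMIs of Prox1, Mmrn1 and Flt4). In the 143 valve cells that met neither, Cldn5 was at 267 and Cldn11 at 288 CPM, and 20.3% had both. Among all 162 P2 cells of the lymphatic rule 41.4% had both, at a median of 5838 UMIs, so this was not particular to valve cells. When only the 90 P2 valve cells that were also endocardial were counted, an alternative added after seeing the data, the ratios fell to 1.71 (1.22 to 2.35) for Cldn5 and 2.11 (1.65 to 2.67) for Cldn11. With the wider marker sums the adult ratio of Cldn5 was 0.981 (0.64 to 1.46), while that of Cldn11 was 12.1 (4.62 to 37.4). How far the valve class stood above other endocardial cells in Cldn5 and, at P2, in Cldn11 thus moved with the cells counted.

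A higher Cldn5 level than in any of the 4 classes was found in lymphatic cells at P2. The 162 cells of the lymphatic rule at P2 had 2377 (2286 to 2471) CPM of Cldn5 and 397 (361 to 437) CPM of Cldn11, with UMIs in 92% and 45.1% of cells. Their Cdh5, Esam and Emcn levels were 493, 207 and 261 CPM, each under the coronary level of P2. E12 and E15 had 2 such cells each. The 10 adult ones had 529 (319 to 826) CPM of Cldn5, less than adult coronary cells. Of the other 31 claudins in the files, 17 had a UMI, 6 had 20 or more over the 4 libraries and 0 had 1000, so Cldn5 with 39326 UMIs and Cldn11 with 2035 made up most claudin transcripts. P2 gave most of these UMIs, and the order differed between libraries. Cldn34c1 had 22.2 CPM at E12, above the 13.1 CPM of Cldn11. In the adult Cldn15 (21.3 CPM), Cldn34c1 (18.8 CPM) and Cldn12 (8.76 CPM) were all above Cldn11 (3.66 CPM).

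Tjp1 (ENSMUSG00000030516, chr7:65296165-65527781, - strand) encodes ZO-1, the scaffold that ties claudins to actin, and of the 10 had the whole-library ratio of adult over E12 closest to 1. Coronary cells had 117 (67 to 190), 106 (90.6 to 124), 94.3 (90.4 to 98.3) and 97.8 (90.6 to 105) CPM. Endocardial cells had 82.6 (71.7 to 94.6), 72.4 (62.2 to 83.8), 55.7 (49.6 to 62.3) and 98.4 (60.9 to 150) CPM. The intervals overlapped at E12 and in the adult and were apart at E15 and P2. Endocardial over coronary ratios were 0.704 (0.423 to 1.26), 0.682 (0.549 to 0.848), 0.59 (0.522 to 0.666) and 1.01 (0.619 to 1.55), and no step between stages passed 2-fold in any class. Whole libraries had 66.5 CPM at E12 and 96.3 CPM in the adult, a ratio of 1.45 (1.3 to 1.62).

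Esam (ENSMUSG00000001946, chr9:37528078-37538319, + strand), an immunoglobulin-type molecule of endothelial tight junctions, was higher in coronary than in endocardial cells throughout. Coronary cells had 205, 419, 803 and 1183 CPM, from 28, 651, 18493 and 8459 UMIs. Endocardial cells had 105 (93 to 119), 215 (197 to 234), 466 (448 to 485) and 450 (364 to 549) CPM. The endocardial level was lower at every stage, at 0.513 (0.347 to 0.787), 0.513 (0.457 to 0.576), 0.581 (0.557 to 0.606) and 0.38 (0.308 to 0.465) of the coronary level. The step from P2 to the adult was 1.47 (1.44 to 1.51) in coronary and 0.965 (0.778 to 1.18) in endocardial cells, and the difference of these steps was not tested.

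Jam2 (ENSMUSG00000053062, chr16:84774123-84825928, + strand) encodes JAM-B, a junctional adhesion molecule, and showed the largest rise of the 10 in whole libraries. It had 10.2 (8.14 to 12.7), 21.9 (18.6 to 25.6), 133 (129 to 138) and 415 (401 to 430) CPM, and passed 2-fold at each of the 3 steps. The ratio of adult over E12 was 40.6 (32.7 to 51.2). The rise was also seen within classes: endocardial cells went from 7.58 to 131 CPM, a ratio of 17.3 (9.33 to 32.8). Coronary cells went from 7.33 CPM, which is 1 UMI, to 436 CPM. E15 coronary cells had 54 UMIs, and the 2 steps that followed were 4.39 (3.35 to 5.85) and 2.86 (2.72 to 3). The endocardial level was 0.556 (0.369 to 0.836), 0.4 (0.357 to 0.448) and 0.301 (0.2 to 0.436) of the coronary level at E15, P2 and in the adult.

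Among the cadherins, Cdh5 (ENSMUSG00000031871, chr8:104101625-104144511, + strand) encodes VE-cadherin. Coronary cells had 344 (253 to 458), 572 (535 to 611), 949 (937 to 962) and 1243 (1218 to 1270) CPM, and endocardial cells 260 (241 to 281), 363 (340 to 388), 431 (414 to 449) and 450 (364 to 549) CPM. The intervals overlapped at E12 and were apart at each later stage. The endocardial level was 0.755 (0.561 to 1.04), 0.635 (0.579 to 0.698), 0.454 (0.435 to 0.474) and 0.362 (0.293 to 0.442) of the coronary level. The ratio of adult over E12 was 3.61 (2.71 to 4.92) in coronary and 1.73 (1.38 to 2.15) in endocardial cells. The 8 endothelial markers went from 2551 to 5902 CPM in coronary and from 2568 to 6444 CPM in endocardial cells over the same stages. How far a change in the cells of a class enters such rises was not tested. At P2 96.5% of the cells with a Cldn5 UMI also had one of Cdh5, and at E12 43.8% did, at median depths of 4531.5 and 1241 UMIs. Of all cells, 5416 of 5884 at P2 and 1138 of 5732 at E12 had a Cdh5 UMI, so the P2 share is near that of the whole library. Macrophages had 52.4 CPM of Cdh5 at E12, 0 at E15 and 91 in the adult.

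Cdh11 (ENSMUSG00000031673, chr8:102632095-102785642, - strand), known as a cadherin of mesenchyme and bone, had the opposite pattern. Endocardial cells had 209 (191 to 227), 272 (252 to 293), 395 (378 to 412) and 197 (142 to 266) CPM. Coronary cells had 0 UMIs at E12, which is 22 CPM when set to 3 counts and has an exact upper limit of 27 CPM. Later they had 28.3 (20.6 to 38), 59.5 (56.3 to 62.7) and 9.51 (7.38 to 12.1) CPM. The endocardial level was 9.49-fold higher at E12 with the coronary class set to 3 counts, which is not the limit of an interval. It was 9.61 (7.08 to 13.4), 6.64 (6.2 to 7.11) and 20.7 (13.7 to 30.9) times the coronary level later. Cells with mesenchyme markers had 173, 157, 302 and 42.5 CPM of Cdh11. Their endothelial markers summed to 559, 896, 4617 and 1412 CPM, against 1818, 3411, 4650 and 5811 CPM in whole libraries. Cells low in endothelial markers thus held Cdh11 too at E12, E15 and in the adult. The P2 value comes from cells with about as much of these markers as the whole library. Mesenchyme markers summed to 1129, 1051, 1352 and 3379 CPM in endocardial and to 249, 390, 322 and 696 CPM in coronary cells. When cells were limited to those with endothelial UMIs, the endocardial over coronary ratio was 8.9 (6.4 to 12.7), 6.63 (6.19 to 7.1) and 21 (13.9 to 31.4). From P2 to the adult Cdh11 fell in all 4 classes, from 0.121 (0.0756 to 0.185) in artery to 0.499 (0.358 to 0.676) in endocardial cells. The whole library fell from 167 CPM at E12 to 17.6 CPM in the adult.

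Cdh13 (ENSMUSG00000031841, chr8:118283733-119324921, + strand) encodes T-cadherin, which lacks the inner part that binds catenins and is anchored by a lipid. Endocardial cells had 8.38 (5.19 to 12.8), 29.4 (23 to 36.9), 103 (94.7 to 112) and 487 (398 to 591) CPM, a ratio of 58.2 (36.1 to 97.9) from E12 to the adult. Coronary cells had 0 UMIs at E12 (22 CPM at 3 counts, exact upper limit 27 CPM), then 33.5 (25 to 43.9), 136 (131 to 140) and 198 (188 to 209) CPM. Endocardial over coronary ratios were 0.878 (0.607 to 1.28), 0.76 (0.694 to 0.832) and 2.46 (2 to 3.01) at E15, P2 and in the adult. The order of the 2 classes was thus reversed between P2 and the adult. The adult endocardial class has 77 cells, and the difference between stages was not tested.

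Pecam1 (ENSMUSG00000020717, chr11:106654217-106750628, - strand), the sorting antigen, is an adhesion molecule of the cell border. Endocardial cells had 167 (152 to 184), 247 (228 to 267), 686 (664 to 708) and 1322 (1172 to 1485) CPM, and coronary cells 176 (113 to 262), 315 (288 to 344), 626 (615 to 636) and 807 (786 to 828) CPM. The endocardial over coronary ratio was 0.95 (0.63 to 1.5), 0.784 (0.695 to 0.884), 1.1 (1.06 to 1.14) and 1.64 (1.45 to 1.85), within 2-fold throughout. Both classes rose past 2-fold from E12 to the adult, by 7.91 (6.77 to 9.22) in endocardial and 4.59 (3.08 to 7.17) in coronary cells.

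Emcn (ENSMUSG00000054690, chr3:137341067-137432185, + strand) encodes endomucin and had the highest CPM of the 10 in endocardial cells at every stage, though its adult interval overlapped that of Pecam1. Its endocardial levels were 318 (296 to 340), 570 (541 to 600), 1109 (1082 to 1138) and 1420 (1265 to 1589) CPM. Coronary levels were 220 (148 to 314), 258 (233 to 285), 484 (475 to 493) and 797 (776 to 818) CPM. The ratios were 1.44 (1 to 2.16), 2.21 (1.98 to 2.47), 2.29 (2.22 to 2.36) and 1.78 (1.58 to 2), above 1 at each stage and past 2-fold at E15 and P2. Valve cells had less than other endocardial cells, at 0.181 (0.0664 to 0.396), 0.712 (0.67 to 0.756) and 0.449 (0.343 to 0.58) of their level, but among the 90 P2 valve cells that were endocardial the ratio was 0.931 (0.852 to 1.02).

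Set over all 10 genes, endocardial against coronary cells gave 1 gene higher and 1 lower for E12, where 14.7% and 6.8% of all tested genes were. For E15 it gave 3 higher (13.6%) and 1 lower (5.6%). P2 cells had 3 higher (11%) and 3 lower (11%), and adult cells 3 higher (13.8%) and 4 lower (11.9%). The median log2 ratio of the 10 was -0.24, -0.45, -0.58 and 0.36, and that of all genes 0.12, 0.14, 0.10 and 0.10. The E12 median leaves out Cdh11 and Cdh13, which had 0 coronary UMIs, and the adult one rests on 77 endocardial cells. Cldn5 was lower at all 4 stages and Cdh11 higher at all 4. Cldn11 was higher at 3, Emcn at 2 and Cdh13 at 1 stage. Cdh5 and Jam2 were lower at 2 stages and Esam at 1, while Pecam1 and Tjp1 stayed within 2-fold.

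**Figure D3:**
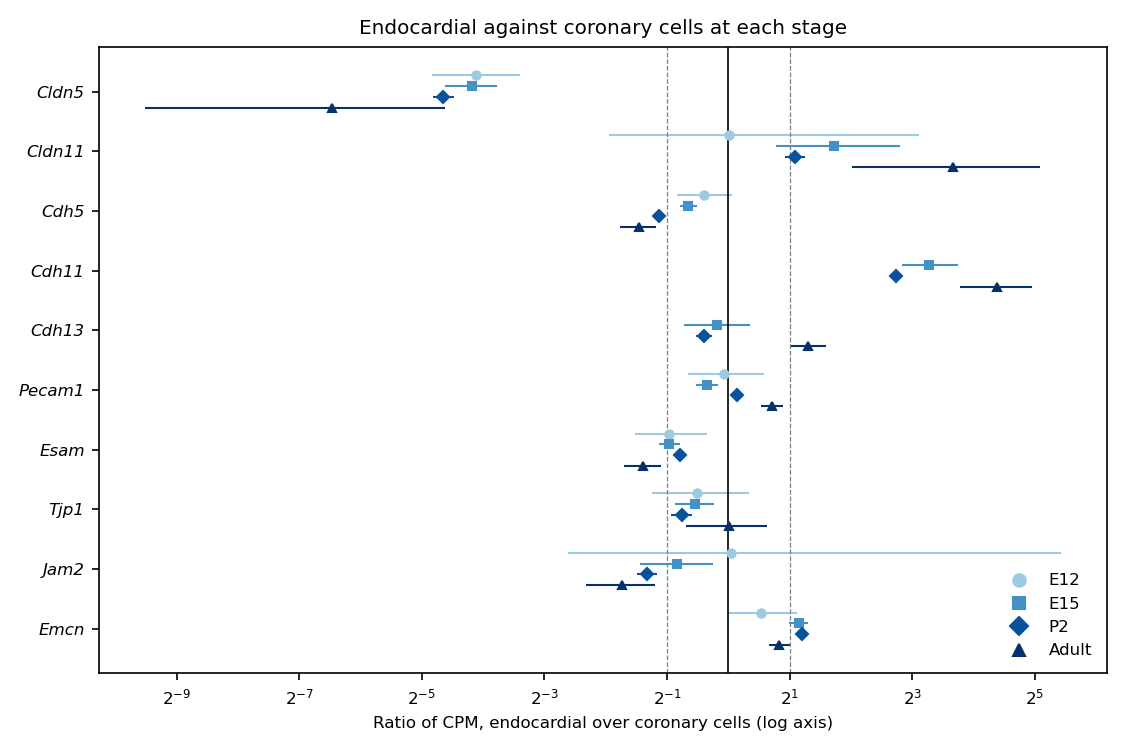
Ratio of the level in endocardial over coronary cells for each gene and stage, on a log axis. Symbols are ratios of CPM with exact 95% intervals, dashed lines mark 2-fold, and Cdh11 and Cdh13 at E12, with 0 coronary UMIs, are left out. Cldn5 lies far to the left at every stage and Cdh11 far to the right.

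After birth most cells of the artery rule were also coronary, 676 of 711 at P2 and 1857 of 1875 in the adult. At P2, 0 of 10 genes were 2-fold higher and 0 lower than in other coronary cells, where 3.14% and 4.85% of all genes were. In the adult 0 were higher (2.26%) and 2 lower (3.3%). With backgrounds this low, such counts say nothing particular of the 10 genes. The 2 were Cldn11 at 0.224 (0.0546 to 0.696) and Cdh11 at 0.407 (0.24 to 0.67), both with few UMIs. The direction of Cdh11 was not stable: it was at 1.63 (0.785 to 3.58) with the wider marker sums and at 2.63 (1.42 to 4.62) with the artery cells set by Gja4 and its partners as described below. Some smaller differences had counting intervals clear of 1, though these intervals leave out the spread between cells. Cldn5 was at 0.774 (0.749 to 0.799) in P2 and 0.818 (0.777 to 0.861) in adult cells. Pecam1 was at 1.42 (1.37 to 1.48) and 1.16 (1.1 to 1.23), Esam at 1.2 (1.16 to 1.25) and 1.18 (1.13 to 1.24), and Cdh5 at 1.15 (1.11 to 1.19) and 1.08 (1.04 to 1.13). Emcn, known to be low in arteries, was at 0.78 (0.739 to 0.823) in P2 and 1.04 (0.985 to 1.09) in adult cells.

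The same direction was seen at equal depth. Coronary cells were thinned to 1000 UMIs and ordered by their UMIs of Cxcl12, Glul, Alpl and Nebl. From 0 to 3 or more such UMIs, Cldn5 went from 1599 (1556 to 1643) over 1416 (1302 to 1537) and 1226 (1039 to 1437) to 1025 (909 to 1152) CPM at P2. In the adult it went from 972 (908 to 1040) over 900 (829 to 976) and 821 (737 to 913) to 677 (629 to 728) CPM. In both libraries the level was lower at each step. Pecam1 went from 610 (583 to 637) to 1138 (1016 to 1272) CPM at P2 and from 741 (685 to 801) to 874 (819 to 931) CPM in the adult, and Esam from 877 (845 to 909) to 1058 (940 to 1187) and from 1132 (1062 to 1205) to 1379 (1310 to 1451) CPM. Emcn went down at P2, from 505 (481 to 530) to 313 (250 to 386) CPM, and up in the adult, from 762 (705 to 823) to 888 (832 to 946) CPM. The artery gene Gja4, a connexin, went from 37.6 to 720 CPM at P2 and only from 26.6 to 91.9 CPM in the adult, so the rule separated artery cells less sharply there. With artery cells taken instead as coronary cells with 2 or more UMIs of Gja4, Gja5, Sema3g and Bmx, an alternative added after seeing the data, adult Cldn5 was at 1.45 (1.35 to 1.56), adult Emcn at 0.625 (0.565 to 0.691) and adult Pecam1 at 1.5 (1.4 to 1.61) of other coronary cells. At P2 Cldn5 was then at 0.948 (0.917 to 0.979) and Emcn at 1.11 (1.06 to 1.17). Set beside the first rule, adult Cldn5 and Cdh11 and P2 Emcn and Cdh11 (1.72 (1.51 to 1.96)) thus lay on the other side of 1, adult Emcn moved from near 1 to below it, and Pecam1 stayed above 1 at both stages, with 1.4 (1.35 to 1.46) at P2.

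**Figure D4:**
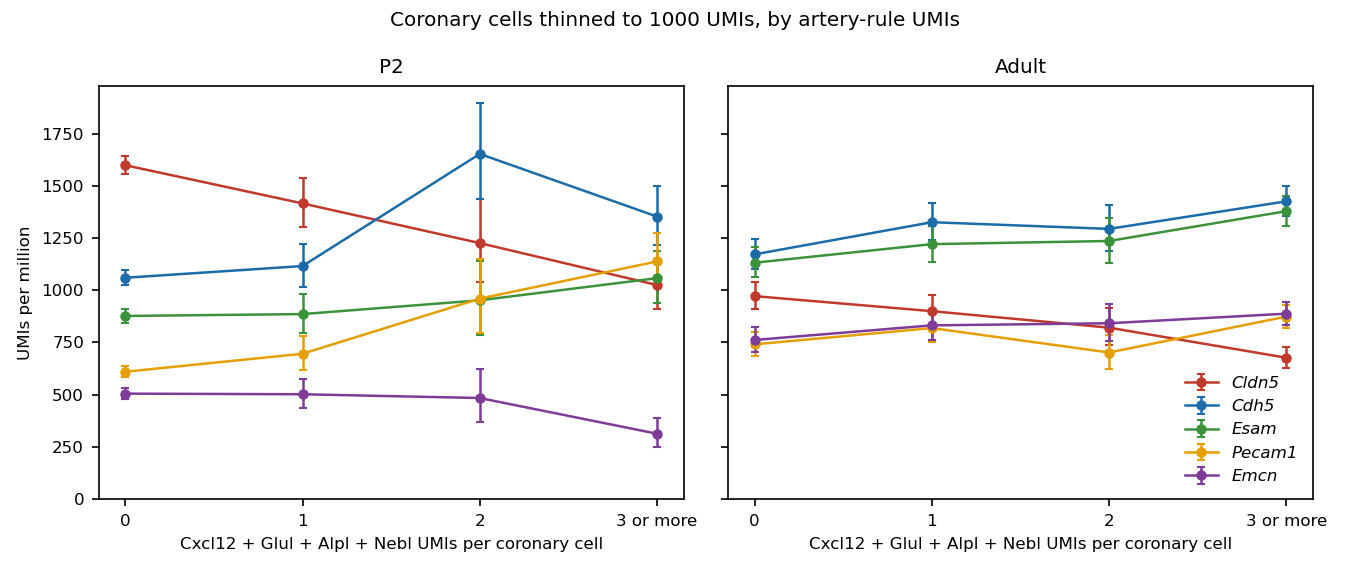
Level of 5 genes in coronary cells thinned to 1000 UMIs, against the number of UMIs of the 4 genes of the artery rule, at P2 and in the adult. Points are CPM with exact 95% intervals. Cldn5 falls from 1599 to 1025 at P2 and from 972 to 677 in the adult, while Pecam1 goes from 610 to 1138 and, less evenly, from 741 to 874.

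In the embryo, cells of the artery rule had little of most of the 10 genes, together with the mesenchyme markers given above. At E12 they had 31.9 (18.9 to 50.4) CPM of Cdh5, 26.6 (14.9 to 43.9) of Pecam1 and 1.77 (0.0449 to 9.88) of Cldn5, but 193 (159 to 233) CPM of Cdh11. Against other coronary cells 6 of 7 genes measured were lower at E12 (8.9% of all genes) and 1 higher (21.7%), and at E15 4 of 9 were lower (13.7%) and 1 higher (12.1%), which was Cdh11 both times. With the Gja4 rule the 54 artery cells at E15 had Cdh5 at 1.65 (1.29 to 2.08) and Esam at 1.36 (0.995 to 1.83) of other coronary cells.

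Valve against other endocardial cells gave 3 genes higher and 1 lower of 10 at E15 (13% and 6.6% of all genes), 2 and 0 at P2 (4.92% and 4.28%) and 2 and 3 in the adult (8% and 11.2%). The 2 claudins were higher at each stage, although for adult Cldn5 the 18 valve cells that were also coronary and the ratio of 0.981 with the wider marker sums, both given above, limit this. The third at E15 was Cdh13, at 2.93 (0.924 to 7.16) from 5 valve UMIs. Emcn was the gene lower at E15, and Emcn, Pecam1 and Tjp1 were lower in the adult, Pecam1 at 0.398 (0.297 to 0.525) and Tjp1 at 0.343 (0.0853 to 1.02). The other genes stayed within 2-fold at P2, with Cdh5 at 1.02 (0.938 to 1.11) and Esam at 0.725 (0.661 to 0.795). Jam2 had 0 UMIs in the E15 valve cells, which allows a level above that of other endocardial cells and gives no direction.

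Between stages, within endocardial cells 3 genes rose from E12 to E15 (3.91% of all genes), 6 from E15 to P2 (13.1%) and 2 from P2 to the adult (10.9%), and 0 (4.81%), 0 (5.65%) and 3 (11.3%) fell. Within coronary cells 2 of 9 (14%), 5 of 10 (17.6%) and 1 of 10 (11.5%) rose and 0 (6.3%), 0 (5.29%) and 2 (13.2%) fell. Jam2 was among the genes past 2-fold in both classes at each of the steps, although its first coronary step starts from 1 UMI. Esam rose in both from E12 to E15, by 2.04 (1.76 to 2.37) and 2.04 (1.4 to 3.1). The rises from E15 to P2 in both classes included Cldn5, Cldn11, Cdh13 and Jam2. The endocardial share of cells with Cldn5 at E15 could not be told from background, as given above. For coronary Cldn11 the rise was less clear at equal depth. Coronary cells thinned to 1000 UMIs with 0 UMIs of the artery-rule genes had 6.94 (1.89 to 17.8) CPM at E15, from 4 UMIs. At P2 such cells had 14.5 (10.6 to 19.2) CPM, so the intervals overlapped. Unthinned, the P2 coronary class also held 119 cells of the valve rule. The summed endothelial markers also rose within both classes from stage to stage, as given above. The part of the makeup of a class in the rises was not tested. Ribosomal protein genes took 31.5%, 30.4%, 16.3% and 12.2% of all UMIs from E12 to the adult. Without ribosomal, mitochondrial and haemoglobin genes in the total, all log2 ratios from E15 to P2 were lower by 0.25 in whole libraries, and by 0.22 to 0.28 within classes. Within the artery class 4 of 7 rose (7.57%) and 0 fell (13.4%) from E12 to E15, and 7 of 10 rose (18.6%) and 1 fell (11.7%) from E15 to P2, which compares the mesenchyme-rich embryonic cells of that rule with coronary artery cells. From P2 to the adult, 2 rose (10.1%) and 2 fell (10.2%) in that class. In the valve class 4 of 10 rose (14.6%) and 0 fell (9.12%) from E15 to P2, and 1 rose (9.15%) and 3 fell (14.1%) from P2 to the adult.

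Other junction genes, from lists chosen with these results known, were counted in the same way for endocardial against coronary cells. Of 20 other tight junction genes, 15 had enough UMIs at P2 and 13 in the adult, and 7 were higher and 3 lower at P2 (11% and 11% of all genes), then 7 and 2 in the adult (13.8% and 11.9%). For E12 it was 2 and 0 of 8 (14.7% and 6.8%) and for E15 4 and 0 of 10 (13.6% and 5.6%). Cgnl1, which encodes the scaffold paracingulin, had 336 against 77 CPM at P2, a ratio of 4.37 (4.09 to 4.67), and 562 against 49.9 CPM in the adult, a ratio of 11.3 (9.08 to 13.9). Ocln, for occludin, was at 4.42 (3.62 to 5.41) and 8.74 (2.91 to 22.1) times the coronary level, with 37.6 and 28.1 CPM in endocardial cells. Cldn15 was lower at P2, at 0.248 (0.16 to 0.368).

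Of 19 other adherens junction genes, 16 were measured at P2 and 13 in the adult, with 4 higher and 1 lower, then 2 higher and 3 lower. For E12 and E15 it was 1 higher and 0 lower, then 1 and 1, of 15. The shares of all genes were 14.7% higher and 6.8% lower for E12 and 13.6% and 5.6% for E15. For P2 they were 11% and 11% and for the adult 13.8% and 11.9%, and they hold for the next list too. Beside these shares the counts are small numbers. Jup, which encodes plakoglobin, the catenin shared with desmosomes, was the gene lower at P2, at 0.43 (0.39 to 0.473), and was at 0.208 (0.114 to 0.35) in the adult. Of 18 other surface adhesion genes, 17 and 15 were measured, with 1 higher and 5 lower at P2 and 2 higher and 5 lower in the adult, after 1 and 2 of 14 for E12 and 4 and 4 of 16 for E15. The protocadherin gene Pcdh17 had 6.64 CPM in endocardial and 168 CPM in coronary cells at P2, a ratio of 0.0396 (0.0277 to 0.0549). Icam1, an adhesion molecule for leukocytes, was higher in adult endocardial cells, at 422 against 95.4 CPM and a ratio of 4.42 (3.51 to 5.52). The median log2 ratio at P2 was 0.94 for the tight junction list, 0.10 for the adherens junction list and -0.79 for the surface list, beside 0.10 for all genes.

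For each of the 10 genes the 3 genes of most like pattern were taken by Pearson's r of log2(CPM + 20) over the 16 sums of class and stage, among 10407 genes. The points share libraries and some cells, so r is a description. Cldn5 was most like Gprc5b (0.933), Mxra7 (0.91) and Tuba1a (0.902). Cldn11 was most like Enpp2 (0.917) and Aqp8 (0.917), which are genes of the valve rule, and Npc2 (0.871). The rule itself makes Enpp2 and Aqp8 high in the valve sums, so their r adds nothing to the valve levels of Cldn11. Over the 13 sums of 50 or more cells its first genes were Pla2g12a (0.933), Fst (0.93) and Prrt4 (0.923). Cdh5 was most like Efna1 (0.971), Cdh11 like Lmo4 (0.922), Cdh13 like Serpinb6a (0.97), Pecam1 like Marc2 (0.98), Esam like Cav2 (0.958), Tjp1 like Timm10b (0.929), Jam2 like Srgn (0.983) and Emcn like Aplp2 (0.922). Among the 10 genes themselves, r was 0.92 between Cdh5 and Pecam1 and 0.813 between Esam and Jam2. Cldn5 and Cdh11 had an r of -0.644. The 16 sums include the 2 valve cells of E12, and for some pairs r moved without the small classes. Over the 13 sums of 50 or more cells r went from -0.0553 to 0.144 for Cldn5 and Cldn11, from 0.69 to 0.981 for Cdh5 and Esam and from -0.644 to -0.643 for Cldn5 and Cdh11. Among other genes Serpinb6a was again first for Cdh13 (0.982), and another gene came first for each of the rest.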

How the data were processed

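Single-cell RNA was measured in 4 libraries of CD31+/CD45- cells from mouse hearts, 1 per stage. The authors made 10x Genomics 3' libraries and mapped the reads with Cell Ranger 2.2 to mm10, and the deposited values are UMI counts per gene and barcode, whole numbers that are not normalized. The E12 file holds 737280 barcodes, and those past the UMI minimum of the cell rule (5732) were kept. The other files hold called cells. No further filter was set, and doublets were not removed: Scrublet scores (scanpy 1.11.5) were used in an alternative only, where 6.12%, 9.45%, 4.32% and 2.43% of barcodes passed a score of 0.15. Libraries held 7079759 to 29645059 UMIs.

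UMIs were summed per class in Python 3.11.15 (numpy 2.4.6, scipy 1.17.1, pandas 2.3.3). Sums have exact Poisson, shares exact binomial (Clopper-Pearson) and ratios exact conditional binomial 95% intervals, for counting error only. With 1 library per stage, neither stages nor classes were tested. A class with 0 UMIs was set to 3 counts for the 2-fold call. Ratios and their intervals were checked on simulated counts for the endocardial and artery comparisons. Those counts were drawn from the Poisson model that the intervals assume. The check thus covers the calculation and not the spread between cells, overlapping classes or free RNA. Gene positions are from GENCODE M21 (GRCm38). All 10 genes are named, and other junction genes by the size of their ratio. The 10 genes, the lists and the classes were chosen with earlier results of these data known. Alternatives covered cell limits, doublets, class rules, depth, totals, UMI minimum and cells with Xist or Y-linked UMIs.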

Additional observations from a re-analysis of the deposited data

Results flagged for a closer look

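For 6 gene and class comparisons the direction differed between stages, with counting intervals on opposite sides of 1. The differences between stages were not tested, since each stage is 1 library. Cells of the artery rule against other coronary cells gave ratios for Cdh5 of 0.0927 for E12, 0.383 for E15, 1.15 for P2 and 1.08 for adult cells. Pecam1 gave 0.151, 0.523, 1.42 and 1.16 in this order of stages, and Esam 0.0518, 0.352, 1.2 and 1.18. Cdh11 went the other way, at 4.44 for E15, 0.815 for P2 and 0.407 for adult cells. These directions depend on the artery rule. With the Gja4 rule E15 Cdh5 was at 1.65 and Esam and Pecam1 both at 1.36, with intervals that include 1 for the last 2, and Cdh11 was at 1.72 (1.51 to 1.96) for P2 and 2.63 (1.42 to 4.62) for adult cells, with 1.63 (0.785 to 3.58) for adult Cdh11 under the wider marker sums. The embryonic cells of the first rule held 3273 and 6784 CPM of mesenchyme markers, against 189 and 821 CPM after birth, and the part of those cells in the result was not tested.

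Between endocardial and coronary cells, Cdh13 was at 0.76 for P2 and 2.46 for adult cells. Pecam1 was at 0.784 for E15, 1.1 for P2 and 1.64 for adult cells. Adult endocardial cells number 77.

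The E12 barcodes with 1 to 100 UMIs, which enter no comparison, held transcripts of all 10 genes. Their level was 197 CPM for Cldn5, 21 for Cldn11, 202 for Cdh5, 132 for Cdh11 and 17.8 for Cdh13. It was 148 CPM for Pecam1, 132 for Esam, 75.9 for Tjp1, 21 for Jam2 and 253 for Emcn. The sum was 1201 CPM, against 859 CPM in the called E12 cells. Cldn5 stood out with 6.06 (4.85 to 7.54) times its level in the called cells, and the coronary gene Fabp4 was at 13.7 (11.5 to 16.4) times.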

How the results depend on the processing

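No paired analysis was possible because each stage is 1 library and the stages share only replicate number 1, and for the same reason no library could be left out. Classes of 1 stage do come from the same library and are compared within it, but the 4 stages are different conditions and were not used as replicates of a class difference. For artery cells against other coronary cells the count of values past 2-fold was 14 of 36, and became 9 of 34 with class rules 1 UMI stricter, 3 of 19 with cells thinned to 1000 UMIs, 4 of 25 with a minimum of 100 UMIs, 9 of 32 with Xist cells only, 0 of 18 with Y cells only, 1 of 19 with artery and valve cells taken only where coronary or endocardial, 3 of 28 with the Gja4 rule. For valve cells against other endocardial cells the count of values past 2-fold was 11 of 30, and became 4 of 10 with class rules 1 UMI stricter, 6 of 10 with cells thinned to 1000 UMIs, 5 of 21 with a minimum of 100 UMIs, 7 of 20 with Xist cells only, 2 of 10 with Y cells only, 1 of 10 with artery and valve cells taken only where coronary or endocardial. For endocardial against coronary cells the count of values past 2-fold was 19 of 40, and became 10 of 16 with Y cells only. For E12 to E15 within a class the count of values past 2-fold was 9 of 26, and became 5 of 20 with cells of several classes left out, 5 of 21 with class rules 1 UMI stricter, 4 of 18 with cells thinned to 1000 UMIs, 2 of 13 with a minimum of 100 UMIs, 1 of 6 with Y cells only, 5 of 19 with artery and valve cells taken only where coronary or endocardial, 5 of 19 with the Gja4 rule. For E15 to P2 within a class the count of values past 2-fold was 23 of 40, and became 15 of 28 with cells of several classes left out, 12 of 20 with cells thinned to 1000 UMIs, 9 of 20 with Y cells only, 11 of 20 with artery and valve cells taken only where coronary or endocardial. For P2 to Adult within a class the count of values past 2-fold was 16 of 40, and became 9 of 20 with cells of several classes left out, 9 of 28 with cells thinned to 1000 UMIs, 7 of 20 with Y cells only. Between successive stages in whole libraries it was 17 of 30 and stayed within 1.5 times. With cells of several classes left out the direction turned for Esam, E15 to P2 within a class, valve (0.77). With Y cells only the direction turned for Cldn11, successive stages, whole libraries, E15 to P2 (0.683). With endocardial and coronary cells by wider marker sums the direction turned for Cdh11, artery cells against other coronary cells, Adult (1.63), Cldn5, valve cells against other endocardial cells, Adult (0.981), Cdh11, E15 to P2 within a class, coronary (0.914), Cldn5, P2 to Adult within a class, endocardial (1.51). With the Gja4 rule the direction turned for Cdh5, artery cells against other coronary cells, E15 (1.65), Esam, artery cells against other coronary cells, E15 (1.36), Jam2, artery cells against other coronary cells, E15 (1.01), Emcn, artery cells against other coronary cells, E15 (1.09), Cdh11, artery cells against other coronary cells, Adult (2.63), Cdh5, E15 to P2 within a class, artery (0.977), Cdh11, E15 to P2 within a class, artery (1.99), Emcn, P2 to Adult within a class, artery (0.981). The cause of these changes was not tested. Of 107 single values past 2-fold with both classes above 0, some had no value in an alternative. The call was kept by 107 of 107 with a value with E12 barcodes of at least 1000 UMIs. That alternative changed the E12 cells only, so every value without E12 cells was bound to stay the same. The call was kept by 96 of 101 under the limits on UMIs, genes and mitochondrial share and by 85 of 89 with likely doublets left out as well. In endothelial cells only 94 of 105 kept it, and in Y cells 37 of 42. Small classes limit these data: the E12 coronary class has 62 cells, the adult endocardial class 77 and the adult valve class 27. The wider marker sums, the Gja4 rule and the restriction of artery and valve cells were chosen after seeing the data.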
